A study of Mus musculus with 15 samples.

Results

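Translation initiation and elongation factors are the proteins that start and extend every polypeptide on the ribosome. Their transcripts were followed here through germinal centre B cells and the plasmablasts that arise from them. Of the 23420 rows of the deposited mouse expression table, 67 had a symbol starting with Eif1 to Eif6, Eef1 or Eef2. The rule set aside 10 of these, which were Eef2k, the Eif2ak and Eif4ebp genes, Eif2s3x and Eif2s3y. Eef1a2 and Eif4e1b were at 0 in every library. The remaining 55 genes, above 0 in at least 3 libraries, were the members described here. They comprised 5 genes of eIF1 and eIF1A, 9 of eIF2 and eIF2B, 14 of eIF3, 12 of eIF4, 5 of eIF5, eIF5A, eIF5B and eIF6, and 6 of eEF1 and eEF2. The other 4, Eif2c1 to Eif2c4, carry an older name of the Argonaute genes of RNA silencing. They match the rule by symbol but are not initiation factors. The groups above were likewise set by the start of the symbol, which does not show what each protein does.

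In the textbook order of translation initiation, eIF2 brings the initiator tRNA to the small ribosomal subunit and eIF2B reloads eIF2 with GTP. The large eIF3 complex, with eIF1 and eIF1A, holds the small subunit open for mRNA. The cap-binding eIF4E, the RNA helicase eIF4A and the scaffold eIF4G recruit the mRNA, eIF5 and eIF5B complete start codon selection and subunit joining, and eEF1 and eEF2 drive elongation. A germinal centre is the site in lymphoid tissue where activated B cells divide and mutate their antibody genes in a dark zone and are selected in a light zone. Plasmablasts are the antibody-secreting cells that leave it.

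Messenger RNA was measured in 15 libraries of 100 sorted cells each, 3 per group. All cells came from CD45.1+ donor B cells with the B1-8hi (KI/+) antibody knock-in. They were transferred into C57BL6 mice, which were then immunized with NP-CGG in CFA, and were sorted from draining lymph nodes on day 12. The GC-PB group was the tdTomato+ CD138hiCD44hi plasmablasts of donors carrying an S1pr2-ERT2cre transgene (Tg) and ROSA-Ai14 (KI/+), whose recipients received tamoxifen on days 6, 7 and 8. The red label therefore depended on a tamoxifen-activated Cre expressed from S1pr2, a gene of germinal centre B cells. The other groups came from Bcl6-YFP (KI/+) donors without tamoxifen and were gated as B220+CD38loGL7hi. Fraction 1 was the CXCR4loCD86hi light zone gate with CD69hi and Bcl6lo, Fraction 2 with CD69hi and Bcl6hi, and Fraction 3 with CD69lo and Bcl6hi. DZ was the dark zone gate, CXCR4hiCD86lo. Replicates were independent library preparations. The labels do not say whether these came from separate animals, so the p-values measure the spread between libraries, which may be technical.

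The deposited totals were 65535 to 77163 in GC-PB, 107578 to 115088 in Fraction 1, 38283 to 41955 in Fraction 2, 27942 to 32274 in Fraction 3 and 30418 to 35660 in DZ. Every level below is the deposited value after scaling each library to 1 common total of 53845, without the ribosomal RNA gene Rn45s. Each library was divided by its step, the most common nonzero value. This gave an estimated 184103 to 216584 molecules in GC-PB, 326122 to 376992 in Fraction 1 and 335639 to 368603 in Fraction 2, with Rn45s included. In Fraction 3 and DZ the estimates were 231687 to 284687 and 256836 to 305359. The step was 0.3053 to 0.3299 in Fraction 1 and 0.1106 to 0.1204 in Fraction 2. At this depth 8 members had a median under 10 estimated molecules, and these were Eif2b1, Eif2b3, Eif4e3, Eif5a2 and the 4 Argonaute genes. The plasma cell markers summed to 2750 to 3640 in GC-PB and to 32.5 to 105 elsewhere, and Bcl6 was at 0 in GC-PB. Pax5, a gene that defines B cells, was at most 0.491 in any library. Germinal centre markers summed to 1.62 to 2.75 in GC-PB, 20.4 to 30.6 in Fraction 1, 69.0 to 78.8 in Fraction 2, 94.3 to 109 in Fraction 3 and 106 to 113 in DZ. The T cell list summed to 0 to 1.73 in GC-PB and 2.02 to 8.21 elsewhere, with Cd3e and Cd4 at 0 in every library. Outside GC-PB most of that sum was Lck, at 1.82 to 8.04. Cd3d, Cd3g and Cd8a were at most 0.576 in any library. Xist was 15.4 to 20.1 in GC-PB and 12.5 to 16.8 in Fraction 1 and at 0 in the other groups. Ddx3y was at most 0.0567 in GC-PB and Fraction 1 and 5.45 to 8.66 in Fraction 2, Fraction 3 and DZ. Every Fraction 1 library differed from every Fraction 2 library in these genes of the X and Y chromosomes and in the deposited total, so the origin of the cells and the gate cannot be told apart in that comparison. Every GC-PB library differed from every Fraction 1 library in donor genotype, tamoxifen and gate. These cannot be told apart in GC-PB against Fraction 1 either.

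The members together made up more of the Fraction 1 libraries than of any other. Their share of the library total was 1.67, 1.78 and 1.73% in GC-PB, 2.83, 2.77 and 2.77% in Fraction 1, 2.30, 2.34 and 2.34% in Fraction 2, 2.25, 2.22 and 2.15% in Fraction 3, and 2.31, 2.31 and 2.38% in DZ. The 3 Fraction 1 libraries were the highest and the 3 GC-PB libraries the lowest, with no overlap with another group. Fraction 1 had the highest group mean for 36 of the 55 members (65.5%), against 22.3% of all 11190 genes tested. GC-PB had the lowest for 33 (60.0%), against 44.9% of all genes. In bulk samples such as these, fewer cells of a type and less RNA per cell cannot be told apart.

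**Figure D1:**
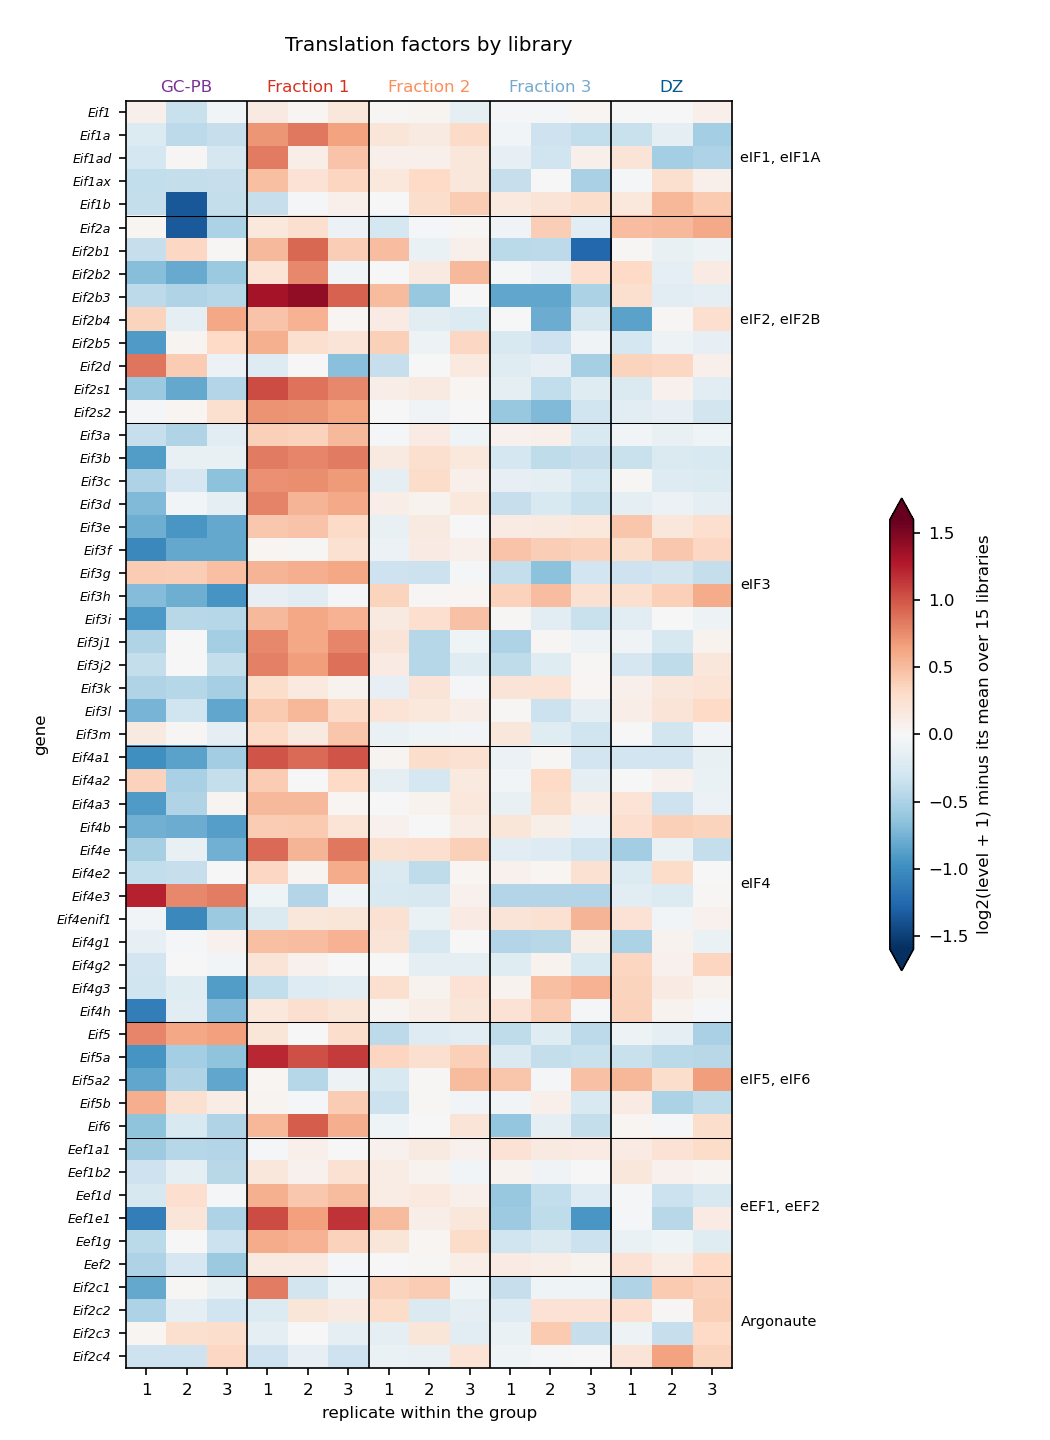
Each row is 1 of the 55 members and each column 1 library, with GC-PB, Fraction 1, Fraction 2, Fraction 3 and DZ from left to right. Colour gives log2(level + 1) at equal library totals minus the gene's mean over the 15 libraries. The Fraction 1 columns are red for most genes and the GC-PB columns blue, and Eif4e3, Eif5 and Eif2d are among the exceptions, with red in at least 2 GC-PB libraries.

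Neighbouring groups were compared in 4 contrasts fitted with limma on log2(level + 1), with Benjamini-Hochberg adjustment over 11190 genes. A gene is said to have risen or fallen where its adjusted p was under 0.05. In GC-PB against Fraction 1, 37 of 55 members fell, where 22.7% of all genes tested fell, and 3 rose, where 14.0% of all genes rose. The members' median log2 change was -0.64, and that of all genes -0.08. In Fraction 1 against Fraction 2, 15 of 55 members rose, where 3.40% of all genes rose, and 0 fell, where 5.18% of all genes fell. At an unadjusted p under 0.05, 24 members were higher and 1 lower there, as were 8.51% and 12.5% of all genes. The members' median was 0.28, and that of all genes -0.05. In Fraction 2 against Fraction 3, limma called 2 members higher, where 0.357% of all genes were called, and 0 lower, where 0.223% were. At an unadjusted p under 0.05 the counts were 17 higher and 1 lower, as were 5.97% and 5.07% of all genes. In Fraction 3 against DZ it called 0 higher and 0 lower, where 0.465% and 0.411% of all genes were called. At an unadjusted p under 0.05, 0 members were higher and 10 lower, as were 4.97% of all genes in each direction. The members' 95% intervals had a median half-width of 0.35 log2 units, so smaller changes were mostly not detectable here. These intervals are not adjusted over all genes, so larger changes could also go uncalled. Eef1e1 in Fraction 1 against Fraction 2 was such a case (0.69, limma adjusted p = 0.129). Fraction 1, Fraction 2 and Fraction 3 each enter 2 of the comparisons, so the changes in neighbouring comparisons are not independent.

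On the deposited scale, without equal totals, the median gene changed by -0.42 in GC-PB against Fraction 1 and by 0.64 in Fraction 1 against Fraction 2. There 50 members were lower and 1 higher in GC-PB (45.8% and 11.2% of all genes), and 51 were higher and 0 lower in Fraction 1 (54.7% and 0.563% of all genes). The members' medians were -1.29 in GC-PB and 1.63 in Fraction 1. The deposited median gene moved by 0.15 in Fraction 2 against Fraction 3, where 15 members were higher and 0 lower (2.67% and 0.0179% of all genes). In Fraction 3 against DZ, 0 were called there in either direction (0.116% higher and 0.125% lower of all genes). With libraries scaled by median ratios instead, 28 members were lower and 4 higher in GC-PB (17.5% and 18.6% of all genes), and 21 were higher and 0 lower in Fraction 1 (4.64% and 3.49%). With that scaling 1 was higher and 0 lower in Fraction 2 against Fraction 3 (0.214% and 0.179%), and 0 were called in Fraction 3 against DZ (0.429% higher and 0.384% lower). The count of 15 in Fraction 1 was 9 when replicate 1 or 3 of Fraction 1, or replicate 1 of Fraction 2, was left out. It was 10 without any other 1 of the 6 libraries, and 8 of the 15 members were called in all 6 of these fits. In GC-PB, 31 of the 37 falls were called in every such fit.

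Counted by libraries alone, 38 members had every GC-PB library below every Fraction 1 library (26.7% of all genes did) and 3 had every one above (16.1%). For 27 members every Fraction 1 library was above every Fraction 2 library (11.9% of all genes), and for 3 below (16.3%). Between Fraction 2 and Fraction 3 the counts were 17 above (8.59%) and 1 below (8.38%). Between Fraction 3 and DZ they were 0 above (7.87%) and 14 below (6.43%). The genes of eIF2 and eIF2B held 5 of these 14, with a median change of -0.34.

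**Figure D2:**
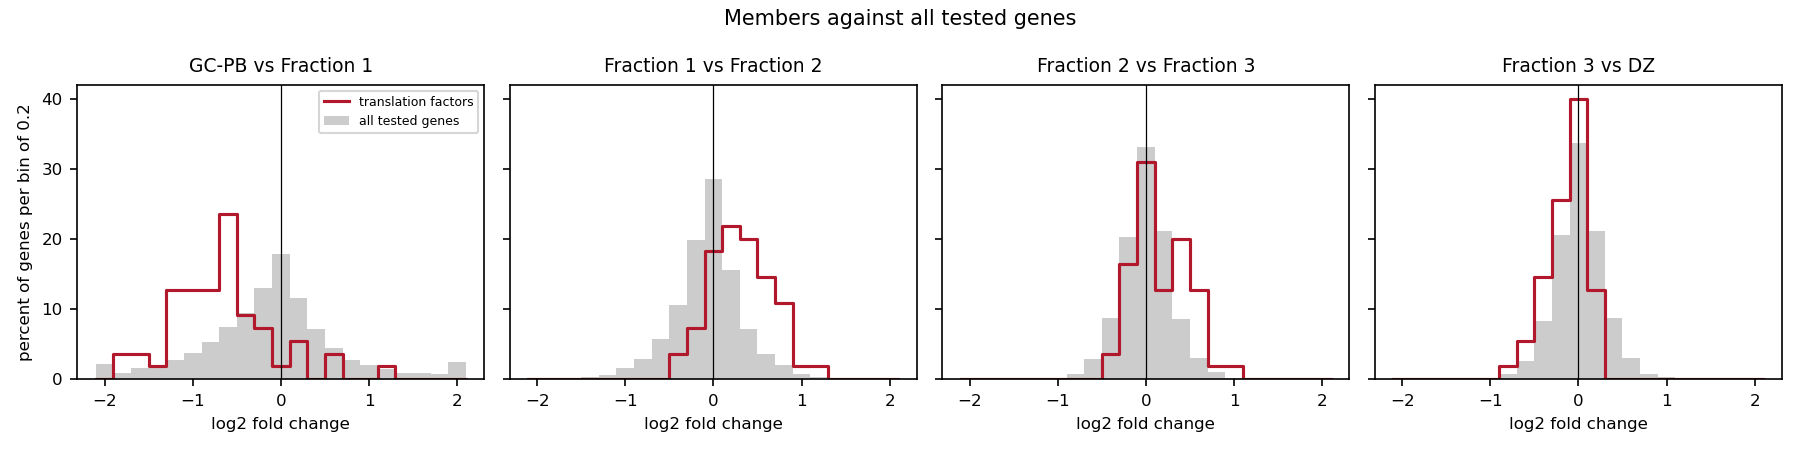
Percent of genes in each bin of 0.2 log2 units of change, for the 55 members (red line) and all 11190 genes tested (grey), 1 panel per comparison. Changes beyond the ends are in the end bins. The members lie left of all genes in GC-PB against Fraction 1 (medians -0.64 and -0.08) and right of them in Fraction 1 against Fraction 2 (0.28 and -0.05).

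Of the factors that load the initiator tRNA, the alpha and beta subunits of eIF2 were highest in Fraction 1. Eif2s1, which encodes the alpha subunit that stress kinases phosphorylate, had levels of 5.59, 4.67 and 6.20 in GC-PB, 19.5, 17.2 and 16.0 in Fraction 1, 9.74, 10 and 9.16 in Fraction 2, 7.91, 6.60 and 7.74 in Fraction 3, and 7.49, 9.46 and 7.87 in DZ. The Fraction 1 libraries stood above all others and the GC-PB libraries below all others. Eif2s1 fell in GC-PB against Fraction 1 (log2 change -1.52 ± 0.15, SE, limma adjusted p = 3.44e-08) and rose in Fraction 1 against Fraction 2 (0.80 ± 0.15, adjusted p = 0.00136). Eif2s2, the beta subunit, had levels of 34.4, 35.7 and 42.1 in GC-PB, 58.1, 57.7 and 55.0 in Fraction 1, 34.8, 33.6 and 35.3 in Fraction 2, 22.6, 21.0 and 28.0 in Fraction 3, and 30.8, 31.8 and 28.3 in DZ. Its Fraction 1 libraries were again the highest, while its GC-PB libraries overlapped those of Fraction 2, and its lowest libraries were in Fraction 3. Eif2s2 fell in GC-PB (-0.60 ± 0.11, limma adjusted p = 0.000228), rose in Fraction 1 against Fraction 2 (0.70 ± 0.11, adjusted p = 0.000405) and rose in Fraction 2 against Fraction 3 (0.52 ± 0.11, adjusted p = 0.0379). The last call was lost without any 1 library other than Fraction 3 replicate 3 (0.44 without Fraction 3 replicate 2 to 0.54 without Fraction 2 replicate 2) and with median ratios (0.50, limma adjusted p = 0.0517).

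Eif2b3, the gamma subunit of the exchange factor eIF2B, had levels of 0.325, 0.275 and 0.288 in GC-PB against 3.45, 3.75 and 2.40 in Fraction 1. In Fraction 2 its levels were 1.51, 0.161 and 0.763. It fell in GC-PB (-1.68 ± 0.26, limma adjusted p = 1.76e-05) and rose in Fraction 1 against Fraction 2 (1.27 ± 0.26, adjusted p = 0.003), on a median of 3 estimated molecules per library. In Fraction 3 its levels were 0, 0 and 0.246. Over the 9 genes of eIF2 and eIF2B, 5 fell and 1 rose in GC-PB (22.7% and 14.0% of all genes). In Fraction 1 against Fraction 2, 3 rose (3.40% of all genes).

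The 1 that rose in GC-PB was Eif2d, which encodes a protein that can deliver tRNA to ribosomes without eIF2. Its levels were 4.87, 3.30 and 2.02 in GC-PB against 1.81, 2.25 and 1.03 in Fraction 1, so the groups overlapped (0.68 ± 0.26, limma adjusted p = 0.0428). The call was lost without replicate 1 (0.45) or 2 (0.67) of GC-PB, or replicate 1 (0.72) or 3 (0.49) of Fraction 1. On the deposited scale the change was 0.22 (limma adjusted p = 0.487).

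Most genes of eIF3, the scaffold on the small subunit, fell in GC-PB. In GC-PB against Fraction 1, 12 of 14 members fell (22.7% of all genes), with changes of all 14 between -1.24 and -0.15 and a median of -1.0. For all 14 every GC-PB library was below every Fraction 1 library (26.7% of all genes). In Fraction 1 against Fraction 2, 8 of the 14 rose (3.40% of all genes), with changes between -0.25 and 0.96 and a median of 0.40. Eif3e, which encodes a subunit that contacts eIF4G, had levels of 10.4, 9.34 and 10.1 in GC-PB, 25.4, 25.9 and 23.4 in Fraction 1, 17.1, 20.8 and 18.5 in Fraction 2, 20.6, 20.8 and 21.1 in Fraction 3, and 25.7, 21.2 and 22.6 in DZ. Its DZ libraries overlapped those of Fraction 1, and its GC-PB libraries were the lowest (-1.24 ± 0.12, limma adjusted p = 2.34e-08).

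Eif3c, a core subunit added here after its values were seen, had levels of 13.0, 15.4 and 11.5 in GC-PB, 31.7, 31.9 and 30.7 in Fraction 1, 16.8, 23.2 and 19.8 in Fraction 2, 17.0, 16.6 and 15.2 in Fraction 3, and 19.0, 16.0 and 15.9 in DZ. Only the Fraction 1 libraries exceeded a level of 30. Eif3g, an RNA-binding subunit, had levels of 17.5, 17.3 and 18.4 in GC-PB, 19.2, 19.9 and 20.3 in Fraction 1, 10.1, 9.98 and 12.7 in Fraction 2, 9.69, 7.82 and 10.3 in Fraction 3, and 10.1, 10.4 and 9.69 in DZ. Its GC-PB and Fraction 1 libraries both stood above the other groups. Eif3g rose in Fraction 1 against Fraction 2 (0.81 ± 0.13, limma adjusted p = 0.00046) and was not called in GC-PB against Fraction 1 at equal totals (-0.15, 95% interval -0.42 to 0.13), with the opposite sign under median ratios (0.13), while on the deposited scale it was lower there (-0.83).

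Not every eIF3 gene peaked in Fraction 1. Eif3f, which encodes a subunit of the outer part of the complex, had levels of 15.3, 17.9 and 17.9 in GC-PB, 32.8, 32.5 and 38.3 in Fraction 1, 30.1, 35.4 and 34.2 in Fraction 2, 44.4, 42.5 and 41.8 in Fraction 3, and 39.5, 43.7 and 40.6 in DZ. It fell in GC-PB (-0.98 ± 0.11, limma adjusted p = 2.43e-07) and was not called in Fraction 1 against Fraction 2 (0.05, 95% interval -0.17 to 0.28). Eif3h, also added after its values were seen, likewise had its highest group mean outside Fraction 1, at 29.9 ± 3.72 in DZ (SD, n = 3). The near-identical copies Eif3j1 and Eif3j2 cannot be separated with certainty. Both had fractional values in 7 libraries, as split reads would give. They rose in Fraction 1 against Fraction 2 by 0.83 ± 0.21 (Eif3j1, limma adjusted p = 0.0155) and 0.96 ± 0.20 (Eif3j2, limma adjusted p = 0.00363). Eif3j1 lost its call when replicate 1 (0.81) or 3 (0.80) of Fraction 1, or replicate 2 of Fraction 2 (0.66), was left out. Of the other eIF3 calls there, named after their values were seen, Eif3b and Eif3d were lost in all 6 fits without 1 library, with changes of 0.61 to 0.66 for Eif3b and 0.47 to 0.59 for Eif3d. Eif3a was lost in all of these fits but that without Fraction 2 replicate 2 (0.36 to 0.46 over the 6 fits). Eif3e (0.39 ± 0.12, limma adjusted p = 0.0406) was likewise lost in all but that fit (0.33 to 0.46).

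Among the factors that recruit mRNA, the main helicase gene had the steepest course. Eif4a1 had levels of 10.4, 11.5 and 14.4 in GC-PB, 44.3, 41.4 and 44.3 in Fraction 1, 22.2, 26.5 and 25.8 in Fraction 2, 20.2, 21.8 and 17.2 in Fraction 3, and 17.2, 17.3 and 19.8 in DZ. The Fraction 1 libraries were above all others and the GC-PB libraries below all others. Eif4a1 fell in GC-PB against Fraction 1 (-1.77 ± 0.13, limma adjusted p = 5.54e-10) and rose in Fraction 1 against Fraction 2 (0.78 ± 0.13, adjusted p = 0.000562).

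Over the 12 genes of eIF4, 8 fell and 1 rose in GC-PB (22.7% and 14.0% of all genes). Only 1, Eif4a1, rose in Fraction 1 against Fraction 2 (3.40% of all genes). With median ratios 5 fell and 1 rose in GC-PB (17.5% and 18.6%), and 4 rose in Fraction 1 (4.64%). Eif4e, the cap-binding protein, had levels of 3.90, 5.50 and 3.17 in GC-PB, 12.3, 9.30 and 11.7 in Fraction 1, 7.39, 7.56 and 8.24 in Fraction 2, 5.25, 5.13 and 4.67 in Fraction 3, and 3.80, 5.58 and 4.44 in DZ. The Fraction 1 libraries were the highest, followed without overlap by those of Fraction 2. Eif4e fell in GC-PB (-1.24 ± 0.18, limma adjusted p = 1.05e-05). Its difference of Fraction 1 from Fraction 2 was not called at equal totals (0.46 ± 0.18, 95% interval 0.09 to 0.84). Eif4g1, the scaffold, had levels of 12.7, 13.7 and 14.7 in GC-PB against 20.0, 20.1 and 21.1 in Fraction 1 (-0.54 ± 0.17, limma adjusted p = 0.0138, and -0.27, not called, with median ratios). Eif4g2, which encodes a scaffold that lacks the eIF4E-binding region, was called in no comparison at equal totals and ranged over all libraries between 28.6 and 45.4.

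Eif4e3, a divergent member of the cap-binding family, was the 1 eIF4 gene that rose in GC-PB. Its levels were 2.27, 1.37 and 1.44 in GC-PB against 0.328, 0 and 0.344 in Fraction 1, without overlap (1.14 ± 0.18, limma adjusted p = 2.25e-05). It was at 0 in the 3 Fraction 3 libraries and at most 0.458 in Fraction 2 and DZ. Its highest value in any library was 7 estimated molecules.

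**Figure D3:**
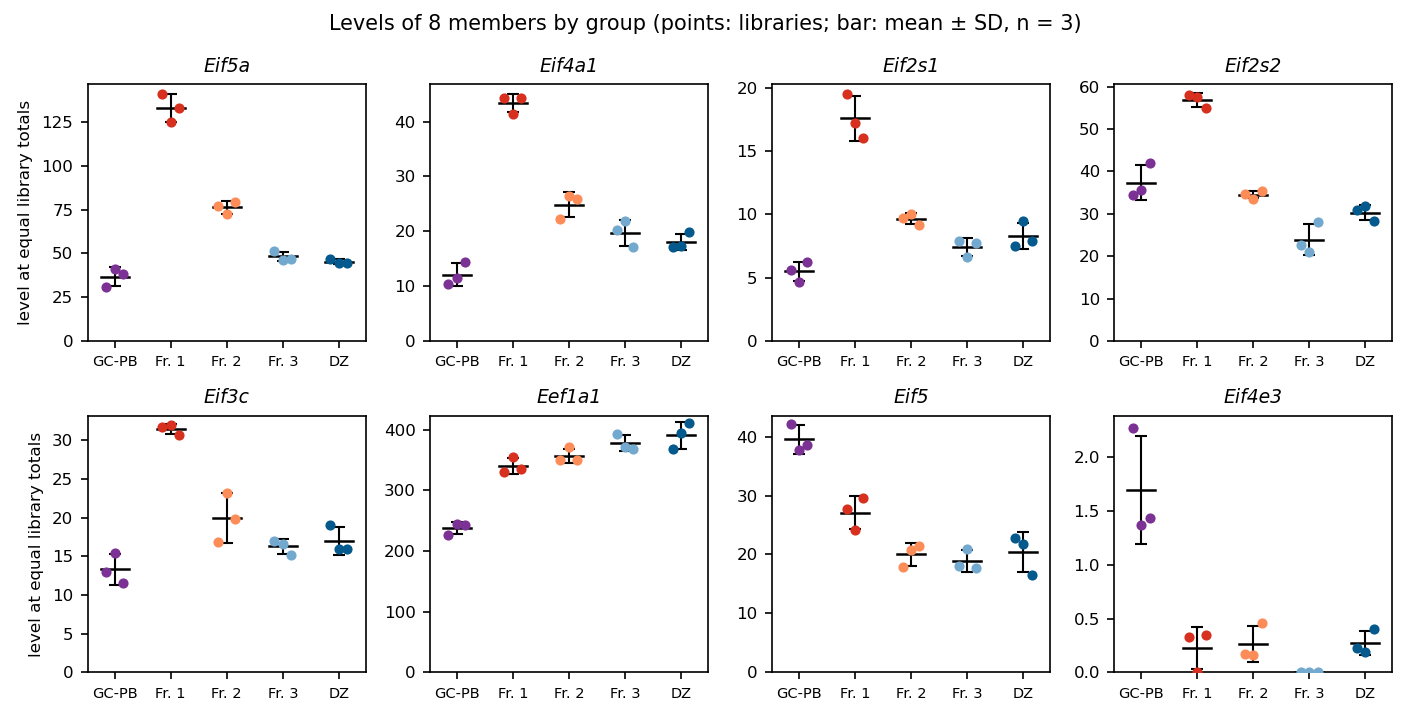
Levels at equal library totals (y axis, linear) of 8 members in GC-PB, Fraction 1, Fraction 2, Fraction 3 and DZ. Points are libraries and bars the mean ± SD (n = 3). Eif5a, Eif4a1, Eif2s1, Eif2s2 and Eif3c are highest in the 3 Fraction 1 libraries, Eef1a1 is lowest in GC-PB, and Eif5 and Eif4e3 are highest in GC-PB (on the deposited scale the Eif5 change against Fraction 1 has the opposite sign, -0.15).

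Eif5a encodes the hypusine-modified factor that helps ribosomes through difficult stretches such as proline runs, and it had the largest fall of all members in GC-PB on the log2(level + 1) scale, which understates the changes of low genes such as Eif2b3. It lies on the minus strand of chromosome 11 at 69916714 to 69921958 (mm10). Its levels were 30.9, 41.2 and 38.3 in GC-PB, 141, 125 and 133 in Fraction 1, 77.3, 72.4 and 79.1 in Fraction 2, 51.5, 46.3 and 47.0 in Fraction 3, and 46.9, 44.5 and 44.4 in DZ. Fraction 1 and then Fraction 2 stood above all other groups, and GC-PB below them. Eif5a fell in GC-PB against Fraction 1 (-1.83 ± 0.10, limma adjusted p = 8.29e-12). It rose in Fraction 1 against Fraction 2 (0.79 ± 0.10, adjusted p = 4.8e-05) and in Fraction 2 against Fraction 3 (0.65 ± 0.10, adjusted p = 0.00417). In Fraction 3 against DZ its change was 0.09.

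Eif5, the activator of GTP hydrolysis by eIF2 at the start codon, had levels of 42.2, 37.7 and 38.6 in GC-PB, 27.7, 24.1 and 29.5 in Fraction 1, 17.8, 20.8 and 21.4 in Fraction 2, 18.0, 21.0 and 17.7 in Fraction 3, and 22.8, 21.8 and 16.5 in DZ. The GC-PB libraries were the highest and those of Fraction 1 next, with no overlap between them. At equal totals Eif5 rose in GC-PB against Fraction 1 (0.53 ± 0.13, limma adjusted p = 0.00278), but on the deposited scale the change was -0.15 (limma adjusted p = 0.4). It also rose in Fraction 1 against Fraction 2 (0.42 ± 0.13, limma adjusted p = 0.0483). That call was lost without any 1 of the 6 libraries other than Fraction 1 replicate 2 (0.35 without Fraction 2 replicate 1 to 0.47 without Fraction 2 replicate 3).

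Promoters are shown for Eif5a and Eif4a1, the members with the largest falls in GC-PB on the log2(level + 1) scale, and for Eif5, which went the other way at equal totals. Capitals mark the hexamer CACGTG, the E-box that MYC and related factors bind, which reads the same on both strands. The windows are the RefSeq bases 5′ to 3′ before the annotated start (GRCm38.p6), 250 for Eif5a and Eif4a1. For Eif5, 165 bases are shown after leaving out 85 that an annotated exon covers. Eif5a has other annotated starts further upstream. Where a gene had several windows, the window with the most CACGTG was printed, so the choice itself favoured a match.
Eif5a (chr11:69921387-69921636, minus strand): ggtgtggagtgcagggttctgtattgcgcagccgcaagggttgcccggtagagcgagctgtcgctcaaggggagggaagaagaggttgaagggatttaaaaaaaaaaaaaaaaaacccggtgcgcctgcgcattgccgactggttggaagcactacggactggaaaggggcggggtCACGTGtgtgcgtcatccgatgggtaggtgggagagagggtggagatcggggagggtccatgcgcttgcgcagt
Eif4a1 (chr11:69672424-69672673, minus strand): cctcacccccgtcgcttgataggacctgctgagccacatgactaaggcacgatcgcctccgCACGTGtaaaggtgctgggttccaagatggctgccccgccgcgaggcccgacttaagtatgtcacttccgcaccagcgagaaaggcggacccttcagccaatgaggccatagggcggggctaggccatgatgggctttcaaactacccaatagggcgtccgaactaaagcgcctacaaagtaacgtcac
Eif5 (chr12:111537851-111538015, plus strand): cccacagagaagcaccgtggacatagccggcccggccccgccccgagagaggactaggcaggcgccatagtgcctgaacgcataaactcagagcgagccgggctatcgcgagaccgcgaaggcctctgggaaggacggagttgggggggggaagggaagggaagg
The Eif5a and Eif4a1 windows hold 1 CACGTG each and the printed Eif5 window holds none. In RefSeq windows of 300 bases, from 250 before to 50 after the start, the hexamer was in 11 of the 43 members that have a window (25.6%). It was in 1011 of the 8258 tested genes with a window (12.2%). A gene with several windows was counted if any of them held the hexamer. Among members called lower in GC-PB it was in 10 of 28 (35.7%), and among those called higher in Fraction 1 against Fraction 2 in 3 of 11 (27.3%). A match describes letters in the window and is not evidence of binding.

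Of the 5 genes of eIF5, eIF5A, eIF5B and eIF6, 2 fell and 1 rose in GC-PB, beside 22.7% and 14.0% of all genes. With median ratios 2 fell and 2 rose (17.5% and 18.6% of all genes). In Fraction 1 against Fraction 2, 3 rose (3.40% of all genes). The third of these was Eif6, which keeps the ribosomal subunits apart and was named after its values were seen (0.50 to 0.72 over the 6 fits without 1 library, and not called in 3 of them). These left out Fraction 1 replicate 2 and, in turn, replicates 1 and 2 of Fraction 2.

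At equal totals the elongation factors fell in GC-PB and limma called none between neighbouring germinal centre groups. All 6 genes grouped by symbol under eEF1 and eEF2 fell in GC-PB against Fraction 1 (22.7% of all genes). Their changes at equal totals were between -1.42 (Eef1e1) and -0.48 (Eef1b2). Apart from Eef1e1, the largest fall was -0.77 (Eef1g). With median ratios 3 of the 6 fell (17.5% of all genes), and Eef1b2 (-0.19), Eef1d (-0.24) and Eef2 (-0.25) were not called. Eef1d also lost its call without GC-PB replicate 1 (-0.65 to -0.38 over the 6 fits). At an unadjusted p under 0.05, 3 of the 6 were higher in Fraction 1 against Fraction 2 (8.51% of all genes). In Fraction 2 against Fraction 3, 3 were higher (5.97%), and 0 differed in Fraction 3 against DZ (9.94%). With median ratios limma called 1 of the 6, Eef1g, higher in Fraction 1 against Fraction 2 (0.45, beside 4.64% of all genes). On the deposited scale it called all 6 higher there (54.7%) and 2 higher in Fraction 2 against Fraction 3 (2.67%). Eef1a1, the GTPase that delivers aminoacyl-tRNA, had levels of 226, 245 and 243 in GC-PB, 330, 355 and 335 in Fraction 1, 351, 371 and 351 in Fraction 2, 393, 371 and 369 in Fraction 3, and 368, 394 and 412 in DZ. Every GC-PB library was below every other (-0.51 ± 0.07 against Fraction 1, limma adjusted p = 5.77e-06, and -0.22 with median ratios). Against Fraction 2, its change in Fraction 1 was -0.07 ± 0.07 at equal totals and 1.38 on the deposited scale, so its direction there depended on the scale. Eef1a1 had fractional values in 13 of 15 libraries, as reads shared with its many pseudogene copies would give. Eef1e1, whose product sits in the complex of tRNA synthetases, had levels of 0.975, 3.85 and 2.02 in GC-PB against 7.71, 5.70 and 8.42 in Fraction 1 (-1.42 ± 0.27, limma adjusted p = 0.000225).

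The factors eIF1 and eIF1A guard the accuracy of start codon choice. Of the 5 genes grouped under them by symbol, 4 fell in GC-PB at equal totals (22.7% of all genes). With median ratios 2 fell (17.5% of all genes), and Eif1ad (-0.42) and Eif1b (-0.39) were not called. Eif1ad (-0.64 at equal totals) also lost its call when replicate 1 or 3 of GC-PB or of Fraction 1 was left out (-0.82 to -0.46 over the 6 fits). The exception at equal totals was Eif1, with levels of 78.6, 57.7 and 72.3 in GC-PB, 82.4, 76.0 and 84.5 in Fraction 1, 75.2, 76.4 and 67.2 in Fraction 2, 73.1, 72.6 and 75.9 in Fraction 3, and 74.2, 73.7 and 78.5 in DZ. These groups overlapped, and limma called Eif1 in no comparison at equal totals (-0.23 in GC-PB against Fraction 1, 95% interval -0.44 to -0.01, adjusted p = 0.0935, and 0.06 with median ratios). Without GC-PB replicate 1 it was called lower (-0.32).

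Paralogs did not always share a course, although the difference between paralogs was not tested. Eif4a2, the second eIF4A helicase, had levels of 16.6, 8.52 and 9.51 in GC-PB against 17.1, 12.7 and 16.1 in Fraction 1 and was not called (-0.43, 95% interval -0.83 to -0.02), beside -1.77 for Eif4a1. Without GC-PB replicate 1 it was called lower (-0.70). Like Eif4a1, it had its highest group mean in Fraction 1 and its lowest in GC-PB. Eif5a2, the paralog of Eif5a, had levels of 0, 0.275 and 0 in GC-PB, 0.821, 0.300 and 0.687 in Fraction 1, 0.504, 0.804 and 1.53 in Fraction 2, 1.41, 0.733 and 1.47 in Fraction 3, and 1.56, 1.16 and 1.82 in DZ. Its highest group mean was in DZ, where that of Eif5a was in Fraction 1, but limma called it in no comparison at equal totals. Eif1b had levels of 2.60, 0.825 and 2.59 in GC-PB against 2.63, 3.60 and 3.95 in Fraction 1 and its highest group mean, 5.09 ± 0.778 (SD, n = 3), in DZ. It fell in GC-PB (-0.60 ± 0.23, limma adjusted p = 0.0496). That call was lost without replicate 2 of GC-PB (-0.28) or replicate 2 (-0.56) or 3 (-0.51) of Fraction 1, and with median ratios (-0.39).

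Eif1a and its X-linked copy Eif1ax both fell in GC-PB, by -1.07 ± 0.16 (Eif1a, limma adjusted p = 2.08e-05) and -0.74 ± 0.15 (Eif1ax, limma adjusted p = 0.000476). Eif1a had levels of 4.55, 3.85 and 4.03 in GC-PB against 9.54, 10.6 and 9.12 in Fraction 1, and Fraction 2 lay between at 6.40, 6.13 and 7.02. Eif1ax had levels of 6.50, 6.60 and 6.63 in GC-PB against 12.8, 10.6 and 11.5 in Fraction 1, and its Fraction 2 libraries, at 10.1, 11.3 and 10.2, overlapped those of Fraction 1. Eif4e2, which can bind caps but not eIF4G, fell in GC-PB (-0.58 ± 0.19, limma adjusted p = 0.0177). Its levels were 4.87, 4.95 and 6.63 in GC-PB against 8.70, 6.90 and 10.6 in Fraction 1, without overlap. The call was lost without replicate 1 (-0.52) or 2 (-0.52) of GC-PB or replicate 3 of Fraction 1 (-0.44), and with median ratios (-0.32). Eif4g3, a scaffold related to Eif4g1, had its highest group mean in Fraction 3, at 9.08 ± 1.77, against 7.84 ± 0.979 in DZ (SD, n = 3 each). At equal totals it was called in no comparison. Its change in Fraction 1 against Fraction 2 was -0.44 at equal totals (95% interval -0.83 to -0.05) and 0.84 on the deposited scale.

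**Figure D4:**
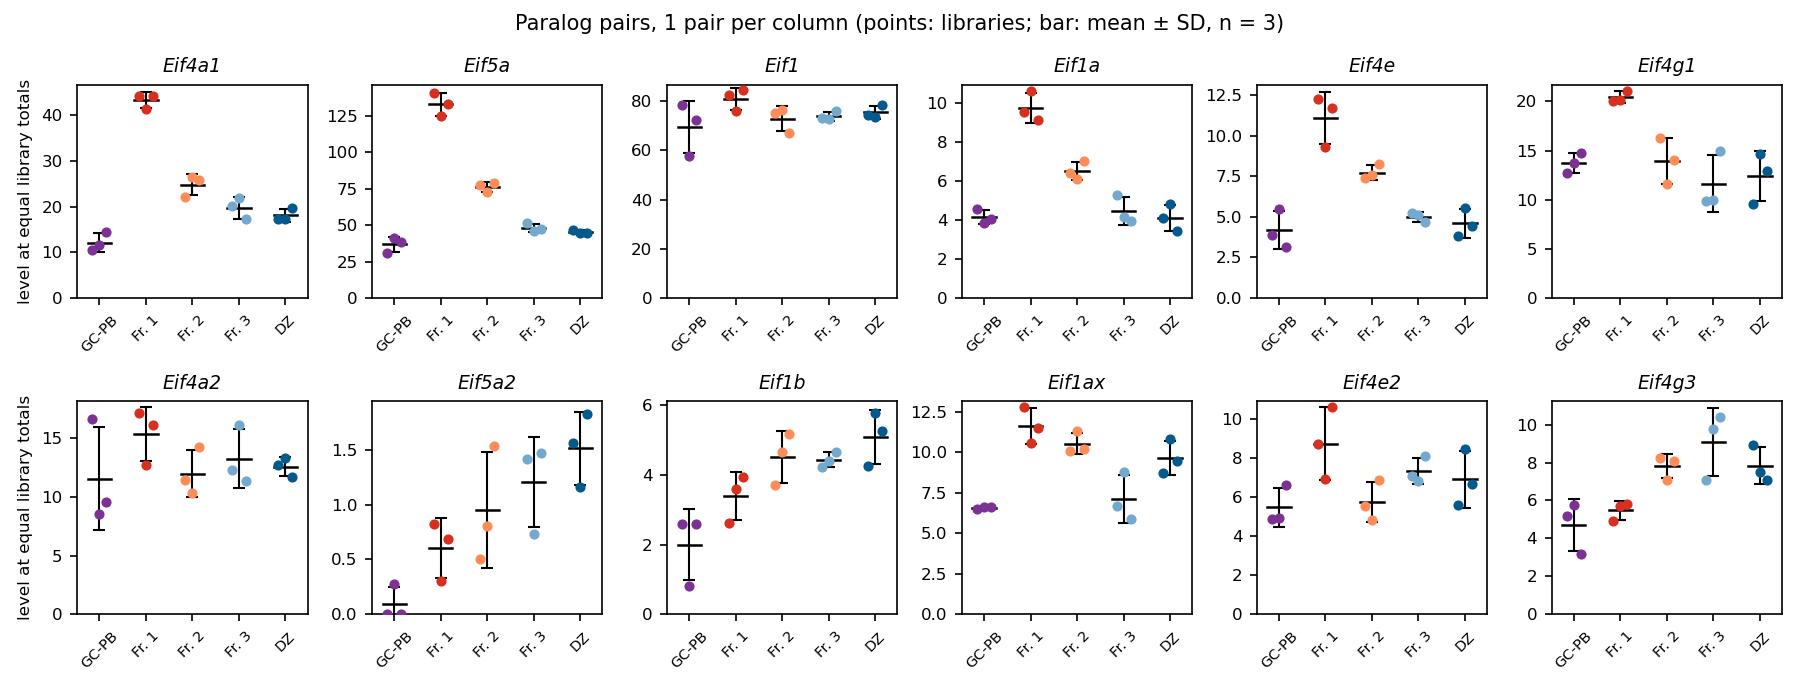
Pairs of related genes, 1 pair per column, with levels at equal library totals on linear y axes that differ between panels. Points are libraries in GC-PB, Fraction 1, Fraction 2, Fraction 3 and DZ from left to right, and bars the mean ± SD (n = 3). Eif1, Eif1a, Eif1ax, Eif4a1, Eif4a2, Eif4e, Eif4e2, Eif4g1 and Eif5a have their highest mean in Fraction 1. Eif5a2 and Eif1b have theirs in DZ and Eif4g3 in Fraction 3.

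**Figure D5:**
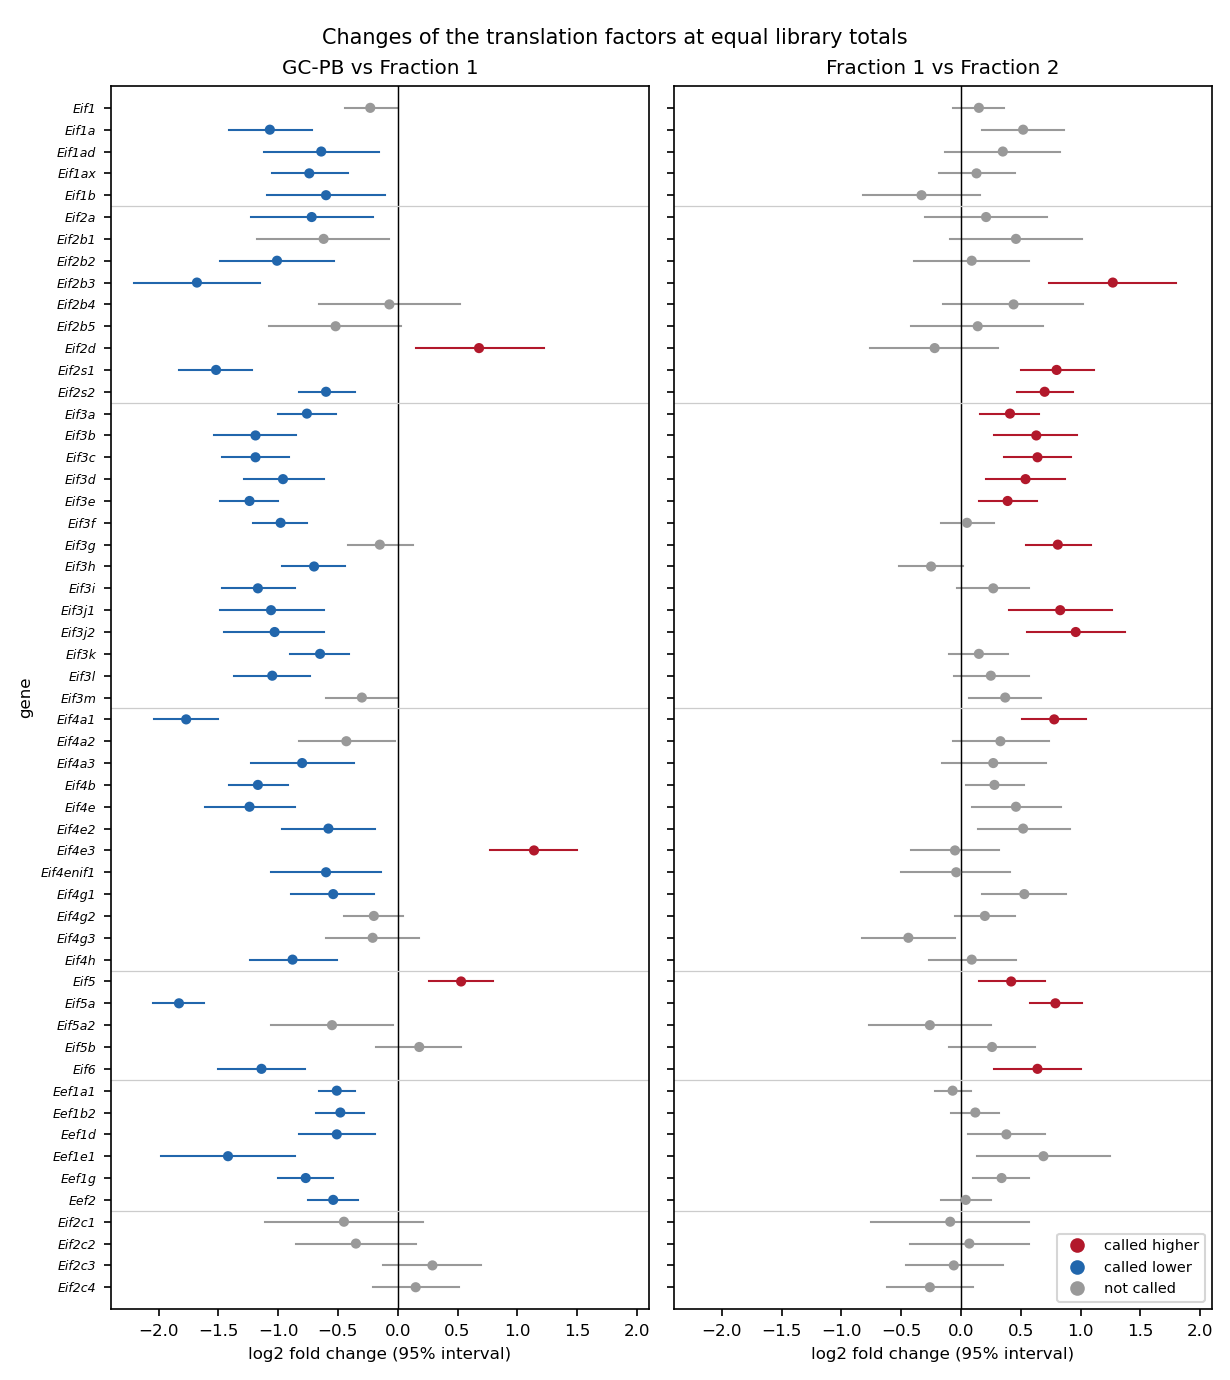
Log2 change at equal library totals (x axis) of each of the 55 members in GC-PB against Fraction 1 (left) and Fraction 1 against Fraction 2 (right), with 95% intervals, grouped by complex from eIF1 at the top to the Argonaute genes at the bottom. In GC-PB, 37 are called lower and 3 higher, and in Fraction 1, 15 are called higher and 0 lower. On the deposited scale these counts are 50 and 1, and 51 and 0, and 2 members in GC-PB (Eif5 and Eif5b) and 10 in Fraction 1 change sign, of which Eif5 is the only one called at equal totals.

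Transcripts with a terminal oligopyrimidine start are a textbook class whose translation mTOR controls. For 9 members of that class, listed with their values known, the median change in GC-PB was -0.70 and all 9 fell. The other 46 had a median of -0.63, and 28 of them fell and 3 rose. Of all genes 22.7% fell and 14.0% rose there. In Fraction 1 against Fraction 2, 1 of the 9 rose, with a median of 0.12. Of the other 46, 14 rose, with a median of 0.34, beside 3.40% of all genes. No test of this difference was made.

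At equal totals limma called the 4 Argonaute genes in none of the comparisons. At an unadjusted p under 0.05, 1 was lower there in Fraction 3 against DZ (4.97% of all genes). In GC-PB against Fraction 1, Fraction 1 against Fraction 2 and Fraction 2 against Fraction 3, 0 differed (44.1%, 21% and 11% of all genes). On the deposited scale limma called 2 lower in GC-PB against Fraction 1 (45.8% of all genes). It called 2 higher in Fraction 1 against Fraction 2 on that scale (54.7%). Their levels ranged up to 3.12, so these counts rest on few molecules. Together with Eif1, Eif2b1, Eif2b4, Eif2b5, Eif3m, Eif4a2, Eif4g2, Eif4g3, Eif5a2 and Eif5b they made up the 14 members called in no comparison at equal totals.

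Genes that work with these factors were counted in the same way. Of 18 listed partners 17 were tested, and 9 fell and 0 rose in GC-PB, beside 22.7% and 14.0% of all genes. At an unadjusted p under 0.05, 11 were lower and 0 higher, beside 26.7% and 17.4% of all genes. With median ratios 7 fell and 0 rose (17.5% and 18.6%), and Paip2b (-0.53) and Ddx3x (-0.31) were not called. Paip2b also lost its call without replicate 1 or 3 of GC-PB or replicate 3 of Fraction 1 (-0.89 to -0.60). On the deposited scale 13 fell and 0 rose (45.8% and 11.2%). At equal totals 6 of the 17 rose in Fraction 1 against Fraction 2, beside 3.40% of all genes. Of these, 3 (Pabpc4, Ddx3x and Etf1) were called in every fit without 1 library. Ddx3x lies on the X chromosome, and the 2 groups also differed in Xist and Ddx3y. Whether its rise goes with that difference was not tested. Gspt1 was lost in all 6 such fits (0.58 to 0.66), Denr in all but that without Fraction 1 replicate 2 (0.63 to 0.84), and Abce1 in the 4 without replicate 2 or 3 of Fraction 1 or replicate 1 or 2 of Fraction 2 (0.72 to 0.81). Pabpc1, the main cytoplasmic poly(A)-binding protein, had levels of 83.5, 101 and 89.6 in GC-PB, 333, 321 and 283 in Fraction 1, 301, 250 and 270 in Fraction 2, 240, 227 and 205 in Fraction 3, and 245, 272 and 276 in DZ. Every GC-PB library was below every other library (-1.76 ± 0.10, limma adjusted p = 5.12e-12). The related Pabpc4 had levels of 4.87, 4.12 and 5.19 in GC-PB against 22.0, 22.6 and 20.8 in Fraction 1 and 12.1, 14.5 and 9.92 in Fraction 2. It fell in GC-PB (-2.0 ± 0.17, limma adjusted p = 5.03e-09) and rose in Fraction 1 against Fraction 2 (0.81 ± 0.17, limma adjusted p = 0.00432). Etf1, the release factor that reads stop codons, had levels of 9.75, 9.07 and 8.36 in GC-PB against 19.4, 20.7 and 20.4 in Fraction 1 and 13.1, 12.7 and 12.4 in Fraction 2 (-1.08 ± 0.13 in GC-PB, limma adjusted p = 5.33e-07, and 0.62 ± 0.13 in Fraction 1, limma adjusted p = 0.00297).

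Of the 21 regulators, 4 rose and 2 fell in GC-PB at equal totals, beside 14.0% and 22.7% of all genes. The balance depended on the scale, with 9 higher and 2 lower under median ratios (18.6% and 17.5% of all genes) and 1 higher and 7 lower on the deposited scale (11.2% and 45.8%). The kinases that phosphorylate eIF4E moved apart. Mknk2 had levels of 2.92, 3.02 and 2.88 in GC-PB against 11.0, 14.2 and 9.62 in Fraction 1 (-1.66 ± 0.15, limma adjusted p = 1.68e-08). Mknk1, named after its values were seen, had levels of 2.92, 3.02 and 2.59 in GC-PB against 0.492, 0.900 and 0.515 in Fraction 1 (1.24 ± 0.25, limma adjusted p = 0.00042). Mknk2 was also lower in Fraction 1 than in Fraction 2 at equal totals (-0.76 ± 0.15, limma adjusted p = 0.00295), but higher on the deposited scale (0.61). Larp1, which binds terminal oligopyrimidine mRNAs, had levels of 6.50, 8.11 and 8.64 in GC-PB, 24.1, 21.6 and 21.3 in Fraction 1, and 12.3, 9.65 and 10.8 in Fraction 2. It fell in GC-PB (-1.42 ± 0.18, limma adjusted p = 2e-06) and rose in Fraction 1 against Fraction 2 (0.97 ± 0.18, limma adjusted p = 0.00169).

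The other 3 regulators that rose in GC-PB, also named after their values were seen, each lost the call without some libraries. Eif2ak3, the eIF2 kinase of the endoplasmic reticulum (PERK), had levels of 9.10, 2.20 and 2.59 in GC-PB against 1.15, 2.25 and 1.03 in Fraction 1 (1.01 ± 0.32, limma adjusted p = 0.018). The fits without GC-PB replicate 1 or without replicate 1 or 3 of Fraction 1 did not call it, with changes of 0.49 to 1.32 over the 6 fits. Rps6kb2, an S6 kinase, changed by 0.66 (0.53 to 0.78) and was not called without GC-PB replicate 1, GC-PB replicate 3 or Fraction 1 replicate 2. Pdcd4, an inhibitor of eIF4A, changed by 0.66 (0.46 to 0.78) and was not called without GC-PB replicate 3 or any 1 Fraction 1 library. The eIF4E inhibitors, likewise added, were Eif4ebp1 (-0.01), Eif4ebp2 (-0.53) and Eif4ebp3 (0.03), which were not called in GC-PB at equal totals. Between Fraction 1 and Fraction 2, 1 regulator rose in Fraction 1 and 1 fell, beside 3.40% and 5.18% of all genes. These were Larp1 and Mknk2.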

How the data were processed

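Libraries were prepared with molecular barcodes on oligo-dT primers from 100 cells each, with the same amount of spike-in RNA in every tube, per the labels' protocols. Reads were aligned to mm10 and TopHat2 was used, per the submitters' processing notes, which give no version. Counting and scaling are not given in the sources used here. The deposited table holds 1 signal value per gene and library. In every library 91.0 to 92.6% of the nonzero values were whole multiples, within 0.02, of 1 step, the most common nonzero value. These were too few for a count test, so molecule numbers here are estimates. Eef1a1, Eef1b2 and Eif4a3 had values off these steps in at least 8 libraries and 45 members had none, and reads of near-identical copies may be split.

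From these values each library was scaled to the mean total, 53845, with Rn45s left out. Genes above 0 in at least 3 libraries (11190) were tested as log2(value + 1) in limma (version 3.58.1, run under R 4.3.3), letting the variance follow the mean, with 1 mean per group and 10 residual degrees of freedom. P-values were adjusted by the Benjamini-Hochberg method over all genes, and calls were made at an adjusted p under 0.05. Fold changes on this scale understate those of low genes. The members, lists and comparisons were chosen with earlier results of these data known. Genes are named where they were among the 6 largest called changes per direction and comparison, had the highest mean of their complex, were in a listed paralog pair, or were among the 3 other pathway genes with the smallest p per comparison. Others are said to have been added, or are given with their values known to show what a count held or how calls fared under other settings. Gene positions are from GENCODE and promoter windows from RefSeq (GRCm38.p6).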

Additional observations from a re-analysis of the deposited data

How the results depend on the processing

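The counts of called members kept their direction and stayed within 1.5 times of the reported ones under most alternatives. The exceptions were as follows. On the deposited scale, 1 member was higher in GC-PB against Fraction 1, 51 in Fraction 1 against Fraction 2 and 15 in Fraction 2 against Fraction 3. The count of 2 in Fraction 2 against Fraction 3 became 1 with median ratios, no filter on low values or no intensity trend, and 0 with only the 2 groups compared in the fit. With only the 2 groups compared, 1 member (Eif4g3, -0.44) was lower in Fraction 1 against Fraction 2. Leaving out 1 library gave 33 to 36 lower and 2 to 3 higher in GC-PB, 9 to 10 higher in Fraction 1 against Fraction 2, 1 to 2 higher in Fraction 2 against Fraction 3, and 0 for the other counts. On the deposited scale the sign of the change turned for 2 of the 55 members in GC-PB, 10 in Fraction 1 against Fraction 2, 18 in Fraction 2 against Fraction 3 and 3 in Fraction 3 against DZ. With median ratios it turned for 5, 2, 1 and 0 members in the same order. Of all these, only Eif5 in GC-PB (-0.15 on the deposited scale) was called at equal totals. The turns in Fraction 1 against Fraction 2 included Eif2d (0.76), Eef1a1 (1.38), Eif1b (0.85) and Eif4g3 (0.84), and the regulator Mknk2, called lower at equal totals, turned there too (0.61). The cause of these differences was not tested.

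Same-numbered libraries did not deviate together (correlations between -0.03 and 0.02), so the numbers were not taken as pairs. With the replicate number as a block, the count in Fraction 2 against Fraction 3 was 1 (Eif5a), and the other counts stayed within 1.5 times. An equal total set to the median library, an alternative added after the data were seen, moved no count by more. Members with few molecules, such as Eif4e3 and Eif2b3, are limited by depth, and a pseudocount of 3 lowered the Eif4e3 change to 0.54.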
